A study of Mus musculus with 6 samples.

Results

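The mitochondrial ribosomal proteins are the protein components of the ribosome that works inside mitochondria, and their genes were taken as every gene whose symbol starts with Mrpl or Mrps followed by a digit. The rule used names only and no measured value. It found 76 genes on 156 probe sets, of 18193 genes on 34945 probe sets that carry a single gene symbol. A probe set is a group of short oligonucleotides on the array that together report 1 transcript. Where a gene had several, the probe set of highest mean over the 6 arrays stood for it. All 76 genes were among the 9545 tested, a gene being tested if it reached a log2 signal of 5 on at least 1 array. On all 6 arrays 74 of the 76 reached that level, the exceptions being Mrpl14 and Mrpl55.

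Mitochondria carry their own small genome, and the few messages on it are read by a dedicated ribosome that makes core subunits of the respiratory chain and of ATP synthase. The RNA of this ribosome comes from mitochondrial DNA, whereas all its proteins are encoded in the nucleus, made in the cytosol and imported. Some descend from the bacterial ancestor of mitochondria and have counterparts in bacterial ribosomes, while others are found only in mitochondria. Mrpl symbols mark proteins of the large subunit, which forms peptide bonds, and Mrps symbols mark those of the small subunit, which reads the message, although Mrps30 and Mrps18a are now placed in the large subunit and Mrps36 in the 2-oxoglutarate dehydrogenase complex.

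The comparison asked which transcripts differ in resting natural killer cells (NKC) that lack Runx3, a Runt domain transcription factor of cytotoxic lymphocytes. Freshly isolated splenic NKC came from 3 Runx3-/- mice and 3 Runx3+/+ (WT) mice of the ICR strain, all 6 weeks old, with 1 mouse behind each array. They were enriched by negative selection and then sorted for DX5, an integrin epitope that NKC share with basophils. The deletion is in the germ line, so cells other than NKC lacked Runx3 too, and the sex label of every sample names both male and female, so that sex could not be entered in any fit.

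The targeted gene followed its labels. Runx3 had log2 signals of 7.76, 8.51 and 8.68 in Runx3-/- arrays, against 10.11, 11.56 and 10.73 in WT arrays, and was 5.59-fold lower (limma adjusted p = 0.0565). Between 37.9% and 39.4% of probe sets reached log2 5 on each array. Of 9 NKC markers measured, all reached log2 5, 1 fell (Eomes) and none rose, and their summed linear signal spanned 155006 to 172868 in Runx3-/- and 154155 to 179384 in WT. Of 9 basophil and mast cell markers, 7 were higher in Runx3-/-, with a sum of 22468 to 39699 against 7369 to 8596 in WT. Proliferation genes were higher in 5 of 7 (sum 15400 to 21004 in Runx3-/- and 8625 to 15352 in WT), B cell markers in 3 of 6 (2731 to 4096 and 821 to 3232, Pax5 being under log2 5 on every array), and macrophage and monocyte markers in 2 of 8 (491 to 9777 and 1781 to 2407, with Runx3-/- replicate 1 the highest array and Runx3-/- replicate 3 the lowest). Of 6 neutrophil markers 1 was lower, with sums of 137 to 3581 in Runx3-/- and 63.1 to 2958 in WT, Elane being under log2 5 on every array. No T cell or platelet marker met the thresholds, and the erythroid markers measured were under log2 5 throughout. T cell sums were 836 to 993 in Runx3-/- and 600 to 1522 in WT, and platelet sums 1324.9 to 3102.5 and 328 to 3001. Cd4, Cd8a, Cd8b1 and Gp9 were under log2 5 on every array. Platelet signal was uneven within groups: Ppbp read 6.26, 10.42 and 9.04 in Runx3-/- and 5.65, 8.95 and 10.41 in WT. The part of these markers in the results on the mitochondrial ribosome was not tested.

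As a set, the mitochondrial ribosomal protein transcripts lay slightly lower in Runx3-/- NKC, by a small step spread over most members. Their mean log2 signal was 9.11, 9.04 and 9.30 on the Runx3-/- arrays, against 9.23, 9.57 and 9.73 on the WT arrays. The groups overlapped, because WT replicate 1 lay below Runx3-/- replicate 3. The group means were 9.15 ± 0.13 in Runx3-/- and 9.51 ± 0.26 in WT (SD, n = 3 each), a difference of -0.36. The mean over all 9545 tested genes moved by -0.08 between the same arrays. Relative to that mean, the members stood at 0.17, 0.21 and 0.50 in Runx3-/- and at 0.33, 0.64 and 0.76 in WT, again with overlap. These are bulk RNA samples, so fewer cells of a type and less RNA per cell cannot be told apart.

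**Figure D1:**
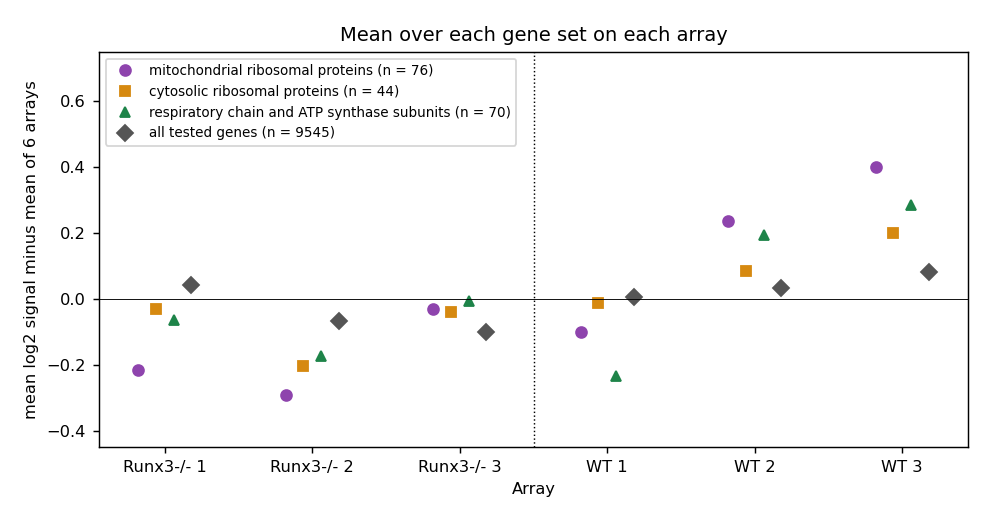
Mean log2 signal of each gene set on each array (y axis, after subtracting the mean of the 6 arrays) for 3 Runx3-/- arrays on the left and 3 WT arrays on the right. Each point is 1 set on 1 array. The members averaged 9.11, 9.04 and 9.30 in Runx3-/- and 9.23, 9.57 and 9.73 in WT, so WT replicate 1 sat among the Runx3-/- arrays.

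Gene by gene, 67 of the 76 members (88.2%) had a log2 change below 0, beside 62.2% of all tested genes. The median change over members was -0.35 (quartiles -0.52 and -0.17, range -1.41 to 0.37) beside a median of -0.13 over all tested genes. The thresholds of the study were an unadjusted p below 0.05 together with a change of at least 1.5-fold. By limma, 9 members (11.8%) were lower in Runx3-/- at these thresholds and 0 were higher, beside 13.8% of all tested genes in either direction, 8.86% lower and 4.89% higher. Without regard to signal level, the members' share was thus near the background of the array. With Benjamini-Hochberg (BH) adjustment at 5% no member passed in limma, while 12 had an unadjusted p under 0.05 and 0.608% of all tested genes passed. Every Runx3-/- array lay below every WT array for 19 members (25%), against 16.8% of all tested genes, and no member showed the opposite order, against 5.98% (22.8% of all tested genes in either order). Among genes with a mean log2 signal of at least 8, the members' median was -0.35 and 14.1% of 64 were lower, beside -0.13 and 7.01% of all 6216 such genes.

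Direction over all genes depended on how arrays were scaled. As deposited, 846 tested genes were lower and 467 higher, but with each array centred on the median of its tested genes 497 were lower and 627 higher. That centring removed the shift of 0.13 in the median of all genes. Under it the members' median change was -0.23, 63 of 76 lay below 0, and 4 were lower at the study thresholds, all of them among the original 9: Mrpl38, Mrps25, Mrps6 and Mrps24. Leaving out WT replicate 1 raised the number of lower members to 26 and the number past BH 5% to 2, Mrpl38 and Mrps6. Without any one of the other arrays the count of lower members was 6 to 10, and none passed BH 5%.

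**Figure D2:**
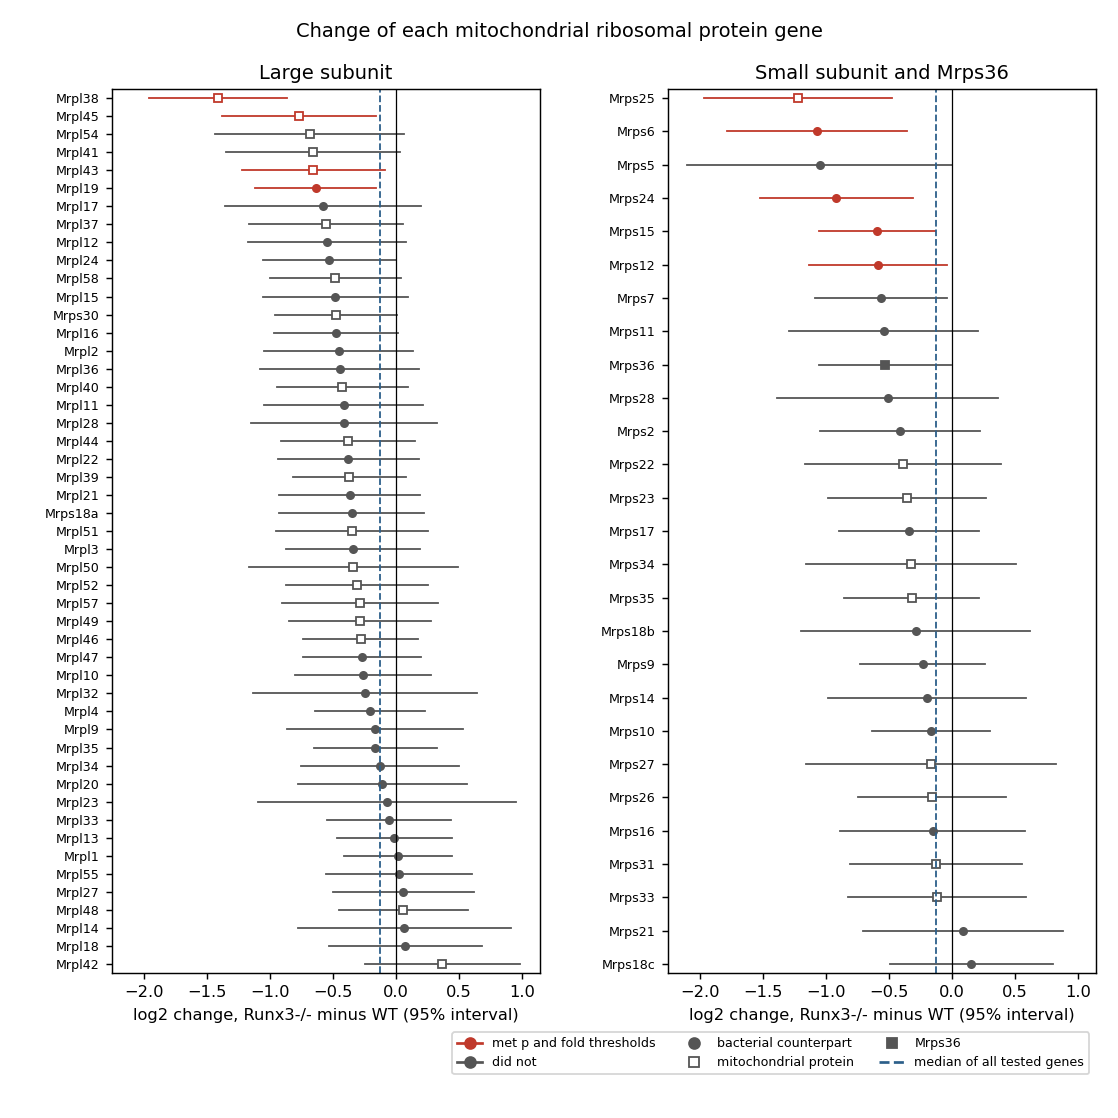
Log2 change in Runx3-/- relative to WT (x axis) with its 95% interval for each of the 76 members, large subunit on the left, small subunit and Mrps36 on the right. Red marks the 9 members that met the p and fold thresholds, filled circles proteins with a bacterial counterpart, open squares proteins found only in mitochondria, and the dashed line the median of all tested genes (-0.13). Mrpl55 is drawn as a filled circle. Members below 0 number 67 of 76, and most intervals cross 0.

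Of the 9 lower members, 4 belong to the large subunit. Mrpl38, a mitochondrial protein of the central protuberance of the large subunit, had log2 signals of 7.49, 7.58 and 7.94 in Runx3-/- arrays, against 8.76, 9.17 and 9.30 in WT arrays. All 3 Runx3-/- arrays lay below all 3 WT arrays, with a gap wider than the spread within either group. Its change of -1.41 ± 0.24 (SE) amounted to 2.66-fold (95% interval of the log2 change -1.96 to -0.86, limma adjusted p = 0.0571), the largest among the members. The value rests on 1 probe set that may read related transcripts (suffix _s_at), since the other Mrpl38 probe sets were dim, and without such probe sets the change was -0.15.

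Mrpl45 lies at the mouth of the exit tunnel and holds the ribosome to the inner membrane. It stood at 7.22, 7.93 and 7.99 in Runx3-/- and at 8.43, 8.69 and 8.34 in WT, without overlap, and its log2 change was -0.77 ± 0.26 (1.71-fold, limma adjusted p = 0.229). Mrpl19, which has a bacterial counterpart, gave 8.81, 8.97 and 9.17 in Runx3-/- and 9.47, 9.58 and 9.82 in WT. The arrays of the groups were again apart, by a change of -0.64 ± 0.21 (1.55-fold, limma adjusted p = 0.213), and its second probe set also changed by -0.64. Mrpl43, another protein confined to mitochondria, measured 9.85, 9.51 and 9.67 in Runx3-/- and 9.91, 10.56 and 10.52 in WT. WT replicate 1 lay just above the highest Runx3-/- array here, and the change was -0.66 ± 0.25 (1.58-fold, limma adjusted p = 0.261).

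The other 5 lower members belong to the small subunit, and Mrps25 and Mrps6 led them. Mrps25, a small subunit protein of mitochondria, had log2 signals of 7.16, 7.86 and 7.47 in Runx3-/- and 8.11, 9.06 and 8.998 in WT. Again no array crossed between groups, and the change was -1.22 ± 0.32 (2.33-fold, limma adjusted p = 0.154). A second Mrps25 probe set, dimmer, read 5.20, 5.96 and 5.82 in Runx3-/- and 6.99, 7.30 and 7.22 in WT, a change of -1.52 in the same direction. Mrps6, counterpart of a bacterial protein of the small subunit platform, gave 9.13, 9.32 and 9.49 in Runx3-/- and 9.73, 10.74 and 10.69 in WT. Its WT replicate 1 lay about 1 unit below the other WT arrays but still above all Runx3-/- arrays (change -1.07 ± 0.31, 2.10-fold, limma adjusted p = 0.174), and its second probe set changed by -0.68.

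Mrps24, the counterpart of a bacterial protein at the entry of the messenger channel, was bright in both groups. It read 11.41, 10.54 and 11.05 in Runx3-/- and 11.77, 11.96 and 12.03 in WT. The WT arrays lay close together and the Runx3-/- arrays ranged more widely below them (change -0.92 ± 0.26, 1.89-fold, limma adjusted p = 0.172), while a second probe set changed by -0.52. Mrps15, whose bacterial counterpart binds early to the small ribosomal RNA, measured 10.54, 10.30 and 10.60 in Runx3-/- and 10.94, 11.22 and 11.06 in WT. That tight separation gave -0.59 ± 0.20 (1.51-fold, limma adjusted p = 0.223), but of its 3 probe sets above log2 5 on all arrays 1 changed by 0.03. Mrps12, whose bacterial counterpart sits in the decoding centre and bears on accuracy, gave 9.06, 8.79 and 9.05 in Runx3-/- and 9.24, 9.51 and 9.91 in WT, a change of -0.59 ± 0.24 (1.51-fold, limma adjusted p = 0.287).

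Calls at these thresholds differed in how far they rested on 1 array. Mrpl38, Mrps25, Mrps6 and Mrps24 kept theirs whichever array was left out. Of these, Mrpl38, Mrps6 and Mrps24 were read on _s_at probe sets and had no call without such probe sets. Mrps12 kept its call only without WT replicate 1 and had changes of -0.41 to -0.64 without any other array. Mrpl43 lost its call without Runx3-/- replicate 2 (-0.57), Runx3-/- replicate 3 (-0.65), WT replicate 2 (-0.54) or WT replicate 3 (-0.56). Mrpl45 lost it without Runx3-/- replicate 1 (-0.53) or WT replicate 2 (-0.67), and Mrpl19 without Runx3-/- replicate 1 (-0.55) or WT replicate 3 (-0.54). Mrps15 lost it without Runx3-/- replicate 2 (-0.50) or WT replicate 2 (-0.52).

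**Figure D3:**
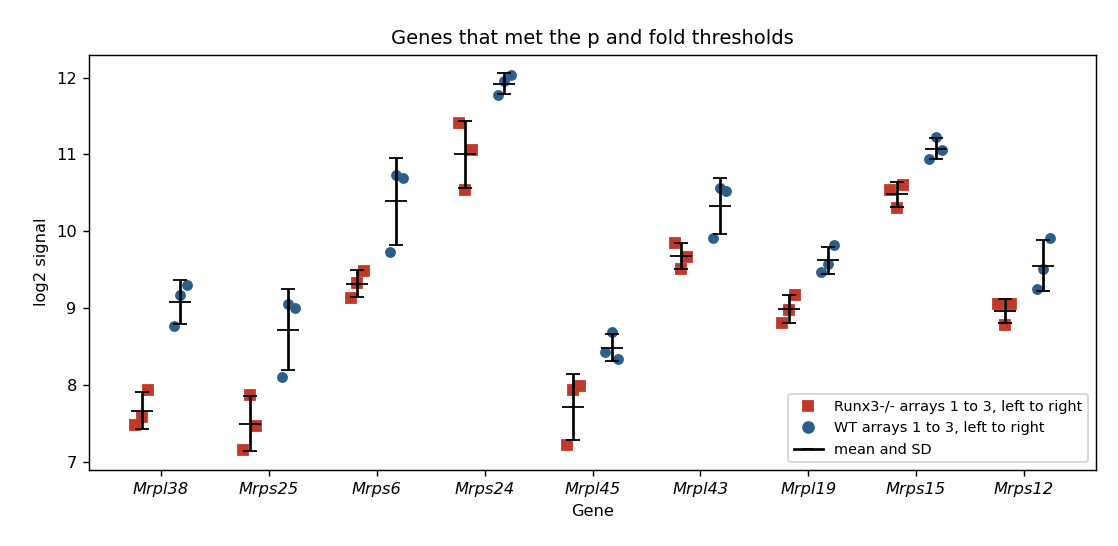
Log2 signal (y axis) of the 9 members that met the p and fold thresholds, with 3 Runx3-/- arrays left of 3 WT arrays for each gene. Points are arrays, and bars are group means with SD. In all 9 genes every Runx3-/- array lies below every WT array, widest for Mrpl38 (7.49 to 7.94 in Runx3-/-, 8.76 to 9.30 in WT). The genes were chosen on these same arrays, so their separation is not added support.

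Several members lay next to the thresholds. Mrps5, counterpart of a bacterial protein involved in decoding accuracy, changed by as much as Mrps6 (-1.05 ± 0.45, limma adjusted p = 0.312) but its WT arrays were far apart. It read 7.49, 7.45 and 7.76 in Runx3-/- and 7.78, 8.38 and 9.69 in WT, the groups being separate but WT replicate 1 only just above the highest Runx3-/- array. Its unadjusted limma p of 0.05003 missed the threshold, and without WT replicate 1 the change was -1.47 and met it. Mrps7 changed by -0.56, Mrps36 by -0.53 and Mrpl24 by -0.53, each with an unadjusted limma p under 0.05 and a change under 1.5-fold. Mrps5, Mrps7, Mrps36, Mrps12 and Mrpl42 were singled out after their values were seen.

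Mrpl24, whose bacterial counterpart lies near the exit tunnel, was also among the 5 members with the highest mean signal, which describes the probe sets and does not rank the mRNAs. It read 11.52, 12.06 and 12.13 in Runx3-/- and 12.45, 12.48 and 12.36 in WT. None of the 5 met the thresholds. Mrpl3, from the core near the peptidyl transferase centre, changed by -0.34 (95% interval -0.87 to 0.19), Mrpl51 by -0.35 (-0.96 to 0.26), Mrps14 by -0.20 (-0.99 to 0.58) and Mrpl9 by -0.17 (-0.86 to 0.53). Their intervals left room for a fall like that of Mrpl24 and for no change.

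No member was higher at the thresholds. Mrpl42, a protein confined to mitochondria, had the largest positive change, with 9.18, 9.69 and 9.36 in Runx3-/- and 8.59, 9.32 and 9.20 in WT. The groups overlapped (0.37 ± 0.26, 95% interval -0.25 to 0.99, limma adjusted p = 0.516). Members nearest 0 among those at log2 8 or more were Mrpl13, Mrpl33 and Mrpl27, the last a counterpart of the bacterial protein that reaches into the peptidyl transferase centre. Mrpl13 read 10.60, 10.47 and 10.61 in Runx3-/- and 10.36, 10.69 and 10.67 in WT (change -0.01, interval -0.47 to 0.44). Mrpl33 changed by -0.06 (-0.55 to 0.44) and Mrpl27 by 0.06 (-0.50 to 0.62), and the signs of Mrpl13 and Mrpl33 turned under other scalings of the arrays.

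In both subunits most genes lay below 0. Of 49 large subunit genes 42 lay below 0 (85.7%, median -0.35) and 4 were lower at the thresholds (8.16%). Of 26 small subunit genes 24 lay below 0 (92.3%, median -0.33) and 5 were lower (19.2%). Among all tested genes 62.2% lay below 0 and 8.86% were lower. Mean signals of the subunits differed between groups by -0.33 for the large and -0.41 for the small subunit. By ancestry, 5 of 47 genes for proteins of bacterial descent were lower (10.6%, median -0.34). Of 28 genes for proteins found only in mitochondria 4 were lower (14.3%, median -0.35). Within the large subunit 1 of 30 bacterial type genes (3.33%, median -0.27) and 3 of 19 mitochondrial ones (15.8%, median -0.38) were lower. Within the small subunit they were 4 of 17 (23.5%, median -0.41) and 1 of 9 (11.1%, median -0.32). Mrpl55, which changed by 0.02, was counted as bacterial. The counts and medians by ancestry hold for that grouping. The differences between these classes were not tested. Stalk proteins, which recruit the translation factors, were picked for their role: Mrpl10 changed by -0.26, Mrpl11 by -0.41 and Mrpl12 by -0.55, all 3 with 95% intervals that included 0.

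**Figure D4:**
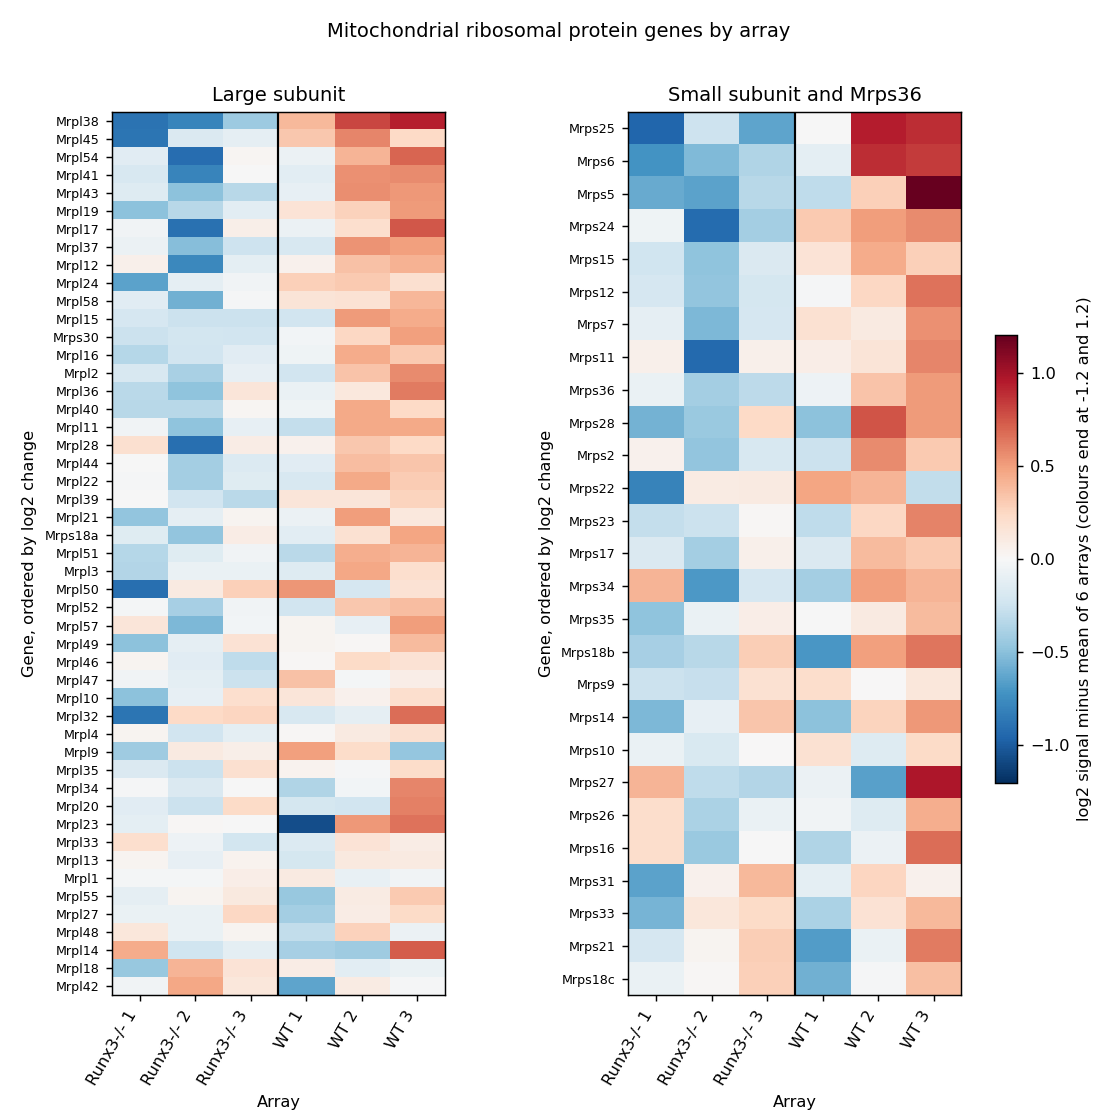
Signal of each of the 76 members (rows) on the 3 Runx3-/- arrays and the 3 WT arrays (columns), as log2 signal minus the member's mean over 6 arrays, with colours ending at -1.2 and 1.2. WT replicate 3 was the highest WT array in 43 members and WT replicate 1 the lowest in 57.

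How the members were ordered across arrays was uneven. WT replicate 1 was the lowest WT array in 57 of 76 members (75%), against 45.4% of all tested genes, and WT replicate 3 was the highest in 43 (56.6%), against 41.6%. Among knockouts, Runx3-/- replicate 3 was the highest in 43 members (56.6%), against 26.5% of all tested genes, and Runx3-/- replicate 2 the lowest in 37. WT replicate 1 lay below the highest Runx3-/- array in 51 members (67.1%), WT replicate 2 in 26 (34.2%) and WT replicate 3 in 13 (17.1%), beside 65.5%, 61.5% and 54.6% of all tested genes. WT replicates 2 and 3 thus lay above the Runx3-/- arrays in more members than WT replicate 1 did. The basophil and mast cell markers had a mean log2 signal of 9.79 to 11.04 in Runx3-/- and 8.41 to 8.87 in WT. These means did not overlap between groups, while Cd200r3 among the markers changed by -0.36. Any relation of these markers to the order of the members was not tested.

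Where a gene had several probe sets, they did not always read alike. Of 156 probe sets 112 were at log2 5 or more on all arrays, and 98 of these changed below 0. Among 24 genes with at least 2 such probe sets, 9 held probe sets of opposite sign or that differed by over 1.5-fold. Mrps9 had the widest spread, with 4 probe sets from -0.52 to 0.82, and Mrpl15 had 6 from -0.69 to 0.36. In Mrps21 they ran from -0.47 to 0.09, in Mrpl11 from -0.41 to 0.01, in Mrpl50 from -0.34 to 0.07 and in Mrpl1 from -0.30 to 0.02. Mrpl13 (-0.01 to 0.20) and Mrpl48 (-0.03 to 0.06) stayed near 0, and Mrps15 is given above. Direction for these genes therefore depends on the probe set.

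Promoters of the members were read from RefSeq (GRCm38.p6, 250 bases before to 50 after each start) for 67 of the 76 genes, which gave 73 promoters. Nuclear genes for mitochondrial proteins are known for binding sites of ETS factors such as GABP, of NRF1 and of YY1, and Runx3 itself binds RUNX words. The ETS word CCGGAAG, searched on both strands, stood in 25 of the 73 (34.2%), beside 11.6% of 21263 promoters of protein coding genes of the same length. The YY1 word ATGGCGG stood in 16.4% against 5.25%, the NRF1 word CATGCGC in 8 of the 73 against 4.8%, and the SP1 word GGGCGG in 53.4% against 46.2%. Of the 4 RUNX words searched, TGTGGT stood in 12.3% of member promoters and 15.0% of protein coding ones, TGTGGC stood in 16.4% and 18.5%, TGCGGT stood in 15.1% and 7.44%, and TGCGGC stood in 23.3% and 15.5%. At least 1 of the 4 was found in 52.1% of member promoters and 46.3% of protein coding ones. Matches of different words could overlap and were each counted. Mrpl2, Mrps16 and Mrpl48 had several starts, each counted as a promoter. The windows of Mrpl2, and those of Mrps16, overlapped, so that the same match could be counted more than once. The shares were not tested, base composition was not matched, and a match is a match of letters and not a binding site.

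A promoter entry existed for 7 of the 9 lower members, and of these 2 held the ETS word and 3 a RUNX word. These 4 promoters of lower members, printed 5′ to 3′ on the gene's strand, show every ETS and RUNX match among those 7 in capitals. Mrpl43 lies at chr19:45006393-45006692 (minus strand) and Mrps12 at chr7:28741772-28742071 (minus strand). Mrps24 lies at chr11:5707652-5707951 (minus strand) and Mrpl45 at chr11:97315466-97315765 (plus strand).
Mrpl43: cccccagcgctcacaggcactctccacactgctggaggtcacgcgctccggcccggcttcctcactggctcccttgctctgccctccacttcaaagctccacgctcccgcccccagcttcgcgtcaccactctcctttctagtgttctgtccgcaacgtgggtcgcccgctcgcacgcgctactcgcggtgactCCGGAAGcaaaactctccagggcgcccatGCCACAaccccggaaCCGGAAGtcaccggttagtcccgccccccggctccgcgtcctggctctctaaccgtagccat
Mrps12: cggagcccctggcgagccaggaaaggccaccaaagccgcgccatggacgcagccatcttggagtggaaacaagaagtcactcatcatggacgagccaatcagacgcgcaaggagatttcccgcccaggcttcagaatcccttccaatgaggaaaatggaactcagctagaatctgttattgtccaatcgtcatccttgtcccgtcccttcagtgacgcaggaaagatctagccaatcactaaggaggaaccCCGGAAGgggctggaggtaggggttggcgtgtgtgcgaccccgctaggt
Mrps24: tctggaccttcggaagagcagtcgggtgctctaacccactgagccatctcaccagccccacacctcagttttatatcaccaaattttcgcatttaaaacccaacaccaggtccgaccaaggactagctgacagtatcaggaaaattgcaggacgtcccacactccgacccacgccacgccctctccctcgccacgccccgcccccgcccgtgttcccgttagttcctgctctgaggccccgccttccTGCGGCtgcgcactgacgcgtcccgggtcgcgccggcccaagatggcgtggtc
Mrpl45: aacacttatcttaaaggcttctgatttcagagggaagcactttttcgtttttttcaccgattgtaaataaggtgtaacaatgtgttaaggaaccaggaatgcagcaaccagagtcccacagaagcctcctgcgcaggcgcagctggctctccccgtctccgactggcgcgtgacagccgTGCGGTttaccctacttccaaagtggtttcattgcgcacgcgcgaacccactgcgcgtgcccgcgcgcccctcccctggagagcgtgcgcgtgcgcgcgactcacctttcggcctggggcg

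In Mrpl43 the capitals are 2 ETS words and between them GCCACA, which is TGTGGC read on the other strand. Mrps12 has 1 ETS word, Mrps24 the RUNX word TGCGGC and Mrpl45 the RUNX word TGCGGT. The log2 changes of these genes ran from -0.59 for Mrps12 to -0.92 for Mrps24, and the promoters of Mrps25, Mrps6 and Mrps15 held neither kind of word in this window.

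Genes that build and serve this ribosome mostly had log2 changes below 0 too, as did 62.2% of all tested genes, of which 8.86% were lower and 4.89% higher at the thresholds. Of 25 assembly factors tested 20 lay below 0 (80%, median -0.48) and 7 were lower at the thresholds (28%), with none higher and none past BH 5%. Noa1, a GTPase needed for assembly of the small subunit, read 7.95, 8.01 and 7.68 in Runx3-/- and 8.49, 9.36 and 9.03 in WT. The groups were separate, with a change of -1.08 ± 0.27 (2.12-fold, limma adjusted p = 0.135). Rcc1l, which takes part in ribosome assembly, changed by -0.80 (adjusted p = 0.169) and Mtg2, a GTPase of the large subunit, by -0.79 (adjusted p = 0.262), although Mtg2 changed by 0.22 on a probe set without the _s_at suffix and lost its call without Runx3-/- replicate 2 or 3 or WT replicate 1 or 3 (-0.61 to -0.78). The RNA methyltransferases Mrm2 and Mrm3, the helicase Dhx30 and Mettl17 were the other 4, at -0.72, -0.67, -0.63 and -0.67. The number of lower assembly factors was 3 without Runx3-/- replicate 2, 2 without WT replicate 3 and 2 after centring on tested genes.

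Of ribosomal proteins that go by other names 4 of 4 lay below 0 (median -0.33), too few genes to set against the 62.2% of all tested genes. Only Gadd45gip1 was lower at the thresholds (-0.73, limma adjusted p = 0.274), as were 8.86% of all tested genes. Its call was lost without Runx3-/- replicate 2 or 3 or WT replicate 2 or 3 (-0.52 to -0.74). Of 13 translation factors 11 lay below 0 (84.6%, median -0.31) and none met the thresholds, although 1 did without Runx3-/- replicate 1, Runx3-/- replicate 3 or WT replicate 1, and 2 without WT replicate 3. Of 18 mitochondrial aminoacyl-tRNA synthetases 16 lay below 0 (88.9%, median -0.37), and 11.1%, Yars2 and Ears2, which charge tRNAs with tyrosine and glutamate, were lower at the thresholds. Yars2 read 6.97, 7.47 and 7.80 in Runx3-/- and 8.39, 8.27 and 8.50 in WT, without overlap (-0.97 ± 0.25, limma adjusted p = 0.150), and Ears2 changed by -1.05 (adjusted p = 0.193). These lists, like the members, were not tested as sets.

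**Figure D5:**
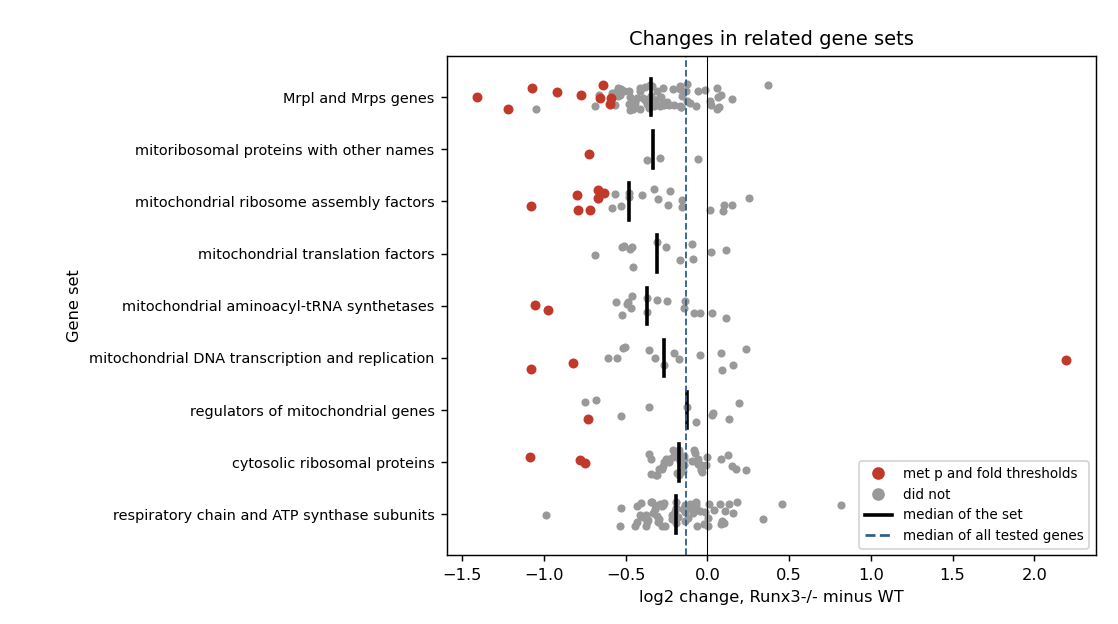
Log2 change in Runx3-/- relative to WT (x axis) of each tested gene in 9 gene sets (rows). Red points met the p and fold thresholds, black bars are set medians and the dashed line is the median of all tested genes. Medians ran from -0.48 for assembly factors and -0.35 for the members to -0.13 for regulators of mitochondrial genes.

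Genes that copy and transcribe mitochondrial DNA varied more among themselves. Of 17 tested 12 lay below 0 (70.6%, median -0.27), 2 were lower (11.8%) and 1 was higher (5.88%) at the thresholds. Top1mt, the mitochondrial topoisomerase, was the gene that rose, with 10.37, 10.77 and 10.29 in Runx3-/- and 9.55, 7.41 and 7.87 in WT. WT replicate 1 was about 2 units above the other WT arrays and still under all Runx3-/- arrays (change 2.20 ± 0.52, 4.58-fold, limma adjusted p = 0.132). The helicase Twnk (-1.08, adjusted p = 0.252) and the RNA polymerase Polrmt (-0.82, adjusted p = 0.301) were lower. Twnk lost its call without Runx3-/- replicate 2 or 3 or WT replicate 2 or 3 (-0.73 to -1.09), and Polrmt without any array but Runx3-/- replicate 1 (-0.63 to -0.92). Of 11 regulators, 7 lay below 0 (63.6%, median -0.13), and only Pprc1, a coactivator related to PGC-1, met the thresholds (-0.73, adjusted p = 0.255). It did so in full and without WT replicate 1, but not without any of the other 5 arrays (-0.58 to -0.75).

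Cytosolic ribosomal proteins and subunits of the respiratory chain had smaller median changes, a difference that was not tested. Of 44 cytosolic ribosomal protein genes, taken by symbol pattern with a few paralogs, 39 lay below 0 (88.6%), 3 were lower (6.82%) and the median was -0.17. Of 70 respiratory chain and ATP synthase subunits 55 lay below 0 (78.6%), none met the thresholds and the median was -0.19. Among all tested genes 62.2% lay below 0 and 8.86% were lower. Both sets were brighter than the members, of which 88.2% lay below 0. Among the 3127 tested genes with a mean log2 signal of at least 10, 63.3% lay below 0, 4.32% were lower and the median was -0.10. The respiratory chain set averaged 11.57, 11.46 and 11.62 in Runx3-/- and 11.40, 11.82 and 11.92 in WT, with WT replicate 1 the lowest array of all 6. The cytosolic set averaged 13.39, 13.22 and 13.39 in Runx3-/- and 13.41, 13.51 and 13.63 in WT. Mean differences were -0.16 and -0.18 in these sets, beside -0.36 for the mitochondrial ribosomal proteins.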

How the data were processed

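Total RNA of sorted splenic NKC from 6 mice was measured on 6 Affymetrix mouse expression arrays, each of a single mouse. The deposited values are log2 signals that the authors computed with GCRMA in Partek, with 45101 probe sets per array. Single-symbol probe sets were named from the platform annotation, and probe sets of several or no genes were left out of the tests. The brightest probe set stood for each gene, genes at log2 5 or more on at least 1 array were kept, and the genotypes were compared in a fit of all genes (limma 3.58.1, R 4.3.3) with BH adjustment over all 9545 genes. The study's thresholds were used, but its test was not named in its methods, nor was the background level, for which log2 5 was taken. The fit was tested on simulated data in which genes varied independently. Shifts shared by many genes of an array, such as those of WT replicate 1, were not part of that test. With 3 arrays per group precision is low: SEs of the members ran from 0.18 to 0.45 on the log2 scale. Sex was not usable as a covariate.

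Members and gene lists were chosen with earlier results of these data known, and no list was tested as a set. Members named with values were the 8 lower ones of largest change at the thresholds, the 5 brightest, the 3 nearest 0 and those whose probe sets disagreed. In related lists, up to 3 genes of smallest p were named. Others are marked as chosen later or were picked for their role. Alternatives covered the filter, scaling, probe set choice, moderation, array weights, a replicate block and leaving out each array.

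Mrpl30 and Mrpl53 were measured on probe sets shared with another gene only and are not among the 76.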

Additional observations from a re-analysis of the deposited data

How the results depend on the processing

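The median change and the difference of the member means stayed below 0 under all 19 alternatives, with medians of -0.50 to -0.28 when 1 array was left out. The number of members lower at the study thresholds was 9, but 5 after quantile normalization, 4 after centring on tested genes (an alternative chosen after seeing the data), 15 of 120 with every probe set counted, 16 with array weights, and 6 to 26 on leaving out 1 array, 26 being without WT replicate 1. Members past BH 5% numbered 0, but 1 by limma-trend, 1 with array weights (Mrpl38 both times) and 0 to 2 on leaving out 1 array. Over all genes 58 passed BH 5%, 130 without WT replicate 1 and 0 without any other array. Without _x_at and _s_at probe sets 6 were lower, Mrpl38, Mrps6 and Mrpl19 losing their calls and Mrps24 and Mrps12 having no probe set left. No member was higher at the thresholds under any alternative. The causes were not tested beyond the fewer arrays or probe sets these settings use.

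Of the genes named, the following changed sign under some alternative, and none of the 9 lower members did. Mrpl13 became 0.022 with median centring, 0.061 with quantile normalization and 0.11 with tested-gene centring, and Mrpl33 0.029 and 0.065 in the last 2. Averaging probe sets gave -0.16 for Mrpl1, -0.19 for Mrps21 and 0.0060 for Mrps9. Dropping _x_at and _s_at probe sets gave 0.0059 for Mrpl11, -0.029 for Mrpl48 and 0.22 for Mtg2, and array weights gave -0.088 for Mrpl48 and 0.013 for Mrpl50. On leaving out 1 array the ranges were -0.50 to 0.017 for Mrps14, -0.44 to 0.035 for Mrpl9, -0.57 to 0.029 for Mrpl50, -0.12 to 0.043 for Mrpl13, -0.17 to 0.042 for Mrpl33, -0.13 to 0.19 for Mrpl27, -0.026 to 0.071 for Mrpl1, -0.23 to 0.42 for Mrps21 and -0.073 to 0.21 for Mrpl48.

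Whether the replicate numbers of the labels pair the mice could not be settled with 3 arrays per group. Deviations of same-numbered arrays correlated at 0.07, -0.19 and 0.15, and not every array correlated best with its own number. With the replicate block 8 members were lower (7 of them among the 9), none passed BH 5% and no gene of the array did. With 3 arrays per genotype and a median SE of 0.26 on the log2 scale, changes under about 1.5-fold were mostly not distinguishable from 0 here.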

Other observations

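Probe sets shared with another gene could not be assigned to a member. The one for Mrpl30 and Gm6238 read 11.20, 11.18 and 11.45 in Runx3-/- and 11.88, 11.83 and 11.88 in WT, a change of -0.59. The one for Mrps34 and Nme3 changed by -0.14, and the one for Mrpl53 and Ccdc142 by -0.38.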
